A study of Rattus norvegicus with 20 samples.

Results

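Liver mRNA was compared between Han/Wistar (Kuopio) rats (H/W) and Sprague-Dawley rats (S-D), which were chosen by their strain label and make up 8 of the 20 arrays of a survey of rat liver. The H/W rats come from a random-bred closed colony and carry a variant aryl hydrocarbon receptor (Ahr) allele with a changed transactivation domain, and the S-D rats are outbred and carry the wild-type allele. Each group held 4 male rats aged 10 to 12 weeks, bred and kept in 1 facility, and every rat of both groups received corn oil by gavage 19 hours before its liver was taken. Each rat gave 1 Affymetrix RAE230A array with no pooling. The spread within a group thus holds that between animals and that of the measurement, which cannot be told apart. The remaining 12 arrays held 4 rats each of Long-Evans (L-E, wild-type Ahr), Line-A (variant Ahr) and Line-C (wild-type Ahr), and both lines were derived from crosses of L-E with H/W. H/W and S-D are unrelated strains, so the Ahr allele is 1 of many genetic differences between them and its part cannot be told apart from the rest of the genome.

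AHR is a ligand-activated transcription factor that pairs with ARNT, binds a short DNA core and turns on a battery of genes for drug-metabolising enzymes, of which Cyp1a1 is the best known. The H/W variant is known for its resistance to dioxin. Liver is made up mainly of hepatocytes, which metabolise drugs, steroids, fats and amino acids and secrete plasma proteins, with macrophages (Kupffer cells), endothelial cells, stellate cells and bile duct cells around them. On a ProbeSet, a group of probes for 1 transcript, a gene was called expressed at a log2 signal of 4 or more, here named the limit of expression.

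The livers matched their label. Of 12 hepatocyte markers, 11 were on the array and 11 of 11 had a mean of at least 4 in both groups. The log2 of their summed signal ran between 18.23 and 18.3 in H/W and between 18.27 and 18.31 in S-D. Signals of a marker list were summed on the linear scale, so its brightest markers count most. The scan days of the 2 groups did not overlap. The S-D arrays were all scanned on 1 day, on 1 chip lot and by 1 operator, and the H/W arrays on 3 other days and 2 other lots by another operator, so strain cannot be told apart from scan day, lot and operator. S-D arrays also lay closer to each other (Pearson r of 0.9914 to 0.9935 across ProbeSets) than H/W arrays did (0.9777 to 0.9871), whereas an H/W and an S-D array had an r of 0.9657 to 0.9741. H/W rat 3 stood apart within its group, with a 3′ minus 5′ log2 difference for the Gapdh control ProbeSets, a sign of RNA quality, of 0.81. That difference ran between 0.33 and 0.81 in H/W and between 0.54 and 0.58 in S-D. The median SD over the arrays of a group was 0.2 in H/W and 0.12 in S-D, and it was 0.16 in H/W without rat 3. Since the H/W arrays span 3 scan days and 2 lots, these SDs do not compare the spread between animals alone. H/W had the larger SD in 75.6% of ProbeSets, and in 62.3% without rat 3.

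More transcripts were lower than higher in H/W livers. Of 7282 ProbeSets whose H/W or S-D mean reached 4, 494 (6.78%) differed at a false discovery rate (FDR) of 1% by limma, of which 142 (1.95%) were higher and 352 (4.83%) lower in H/W. Over the whole array 521 ProbeSets (3.27%) were called, 0.929% higher and 2.34% lower, and 1087 (6.83%) at an FDR of 5%. The 494 had a median absolute log2 difference of 0.82. A difference of at least 1 on the log2 scale was seen for 175 of them, 44 higher and 131 lower in H/W, and one of at least 2 for 47, 13 higher and 34 lower. In 5 of the called ProbeSets H/W was above the limit of expression and all 4 S-D rats below it, and in 32 the reverse held. The median difference was 0.04 over all ProbeSets and -0.0006 over the 5371 expressed genes, but the joint normalization holds array medians close to each other, so these medians do not bear on a shift of whole arrays. The split between higher and lower calls depended on the scaling. Setting all arrays to the same median left 86 ProbeSets with a group at or above 4 higher (18.3% of calls, against 28.7% as deposited), and a further quantile normalization made 39.4% of calls higher. Without H/W rat 3 the count rose to 594 among expressed ProbeSets and to 999 over all. With scan day as a random block, 203 of the expressed ProbeSets were called (50 higher and 153 lower in H/W).

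Of the 94 named genes called, 45 lost their call with scan day as a random block (adjusted p up to 0.0597), 47 with chip lot as a block (up to 0.102) and 53 in a fit on the 8 arrays alone (up to 0.141), and 35 kept it under all 3. Among the genes described here, the calls lost with scan day, and with chip lot too, were those of Olr59, Pdia5, Bst2, Plaat3, Lox, Cyp2c12, Psat1, A2m, Serpina7, Xdh, Hmox1, Cyp3a9, Ugt2b1, Ugt2b15, Gstm4, Gstt3, Sult1b1, Hsd17b7, Slco1a1, Slc27a5, Slc10a1, Gpam, Mlxipl, Decr1, Decr2, Rpl13a, RT1-Bb, C1r, Col1a1, Lyve1, Fcgr2b and Ptprc. That of C1qa was lost with chip lot and on the 8 arrays. Those of RT1-N2, Acot4, Pik3r1, Swi5, Nupr1, C11h21orf91, Cyp1a2, Agxt2, RT1-Ba, Hrg and Kdr were lost on the 8 arrays and kept with both blocks.

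**Figure D1:**
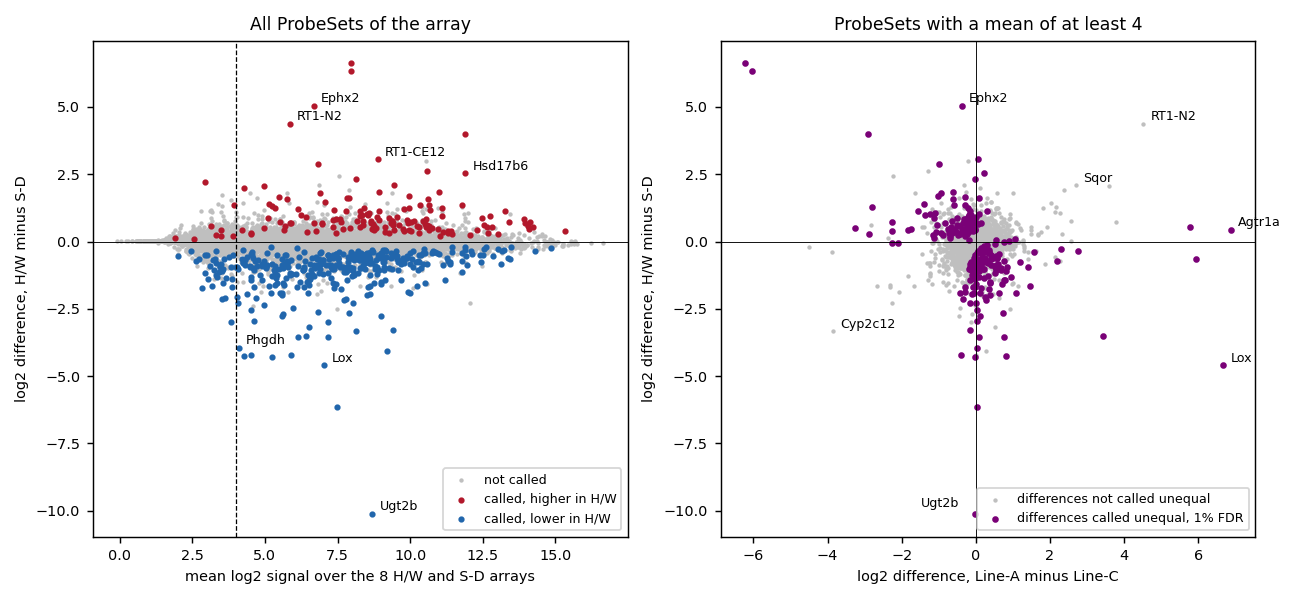
Left, log2 difference (H/W minus S-D) against the mean log2 signal over the 8 arrays for each ProbeSet of the array, with calls at 1% FDR in red (higher in H/W) and blue (lower in H/W) and the limit of expression at 4 dashed. Right, the same difference against Line-A minus Line-C for 7141 ProbeSets whose mean over the 8 arrays reached 4, with purple points where the 2 differences were called unequal. Agtr1a lies near 0 on the vertical axis and far to the right, Ugt2b the other way round, and Lox has opposite signs on the axes.

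Among the genes with the largest rise in H/W, Ephx2 came first. It encodes soluble epoxide hydrolase, which opens fatty acid epoxides. Its log2 signals were 9.25, 9.32, 9.07 and 9.13 in H/W livers, against 4.47, 4.47, 3.46 and 4.25 in S-D livers. The groups were far apart and S-D rats lay about the limit of expression, with 1 of 4 below it, which gave a difference of 5.03 ± 0.23 (SE, 32.7-fold, adjusted p = 4.43e-10). Ephx2 averaged 10.38 in L-E, 9.23 in Line-A and 9.61 in Line-C, so S-D was the one group of the 5 with a low signal.

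The set also held 2 genes of MHC class I, the molecules that show peptides to cytotoxic T cells. RT1-CE12 stood at 10.6, 9.88, 10.49 and 10.66 in H/W and at 7.22, 7.47, 7.19 and 7.53 in S-D, a tight difference of 3.05 ± 0.17 (8.3-fold, adjusted p = 5.45e-09). RT1-N2 stood at 8.74, 5.08, 9.03 and 9.26 in H/W and at 3.9, 3.61, 3.57 and 3.58 in S-D. All 4 S-D rats were under the limit of expression while H/W rat 2 lay far below the other H/W rats, and the difference was at least 16.3-fold (group means 8.03 and 3.67, adjusted p = 2.31e-04). RT1 genes are a polymorphic family of near-identical copies, so these ProbeSets may read more than 1 gene.

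Several genes of the set encode enzymes. Hsd17b6, a steroid-oxidising enzyme, was bright in both strains, at 13.36, 13.17, 13.28 and 12.85 in H/W and 10.88, 10.5, 10.83 and 10.33 in S-D (5.79-fold, adjusted p = 6.03e-08). Sqor, the mitochondrial enzyme that oxidises hydrogen sulfide, stood at 10.21, 10.63, 10.54 and 10.55 in H/W and 8.45, 8.28, 8.22 and 8.66 in S-D (4.24-fold, adjusted p = 1.21e-08). Acot4, a thioesterase that frees fatty and dicarboxylic acids from coenzyme A, stood at 7.91, 8.52, 9.02 and 7.62 in H/W and 6.18, 4.84, 4.95 and 5.54 in S-D (7.42-fold, adjusted p = 3.56e-05). In each of these 3 the groups stood apart by more than the spread within either. Eci1, an isomerase of the oxidation of unsaturated fatty acids, was 3.61-fold higher (adjusted p = 2.41e-04).

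Other genes of the set were of mixed function. Pik3r1, the regulatory subunit of phosphoinositide 3-kinase, was at 4.43, 5.55, 6.55 and 4.56 in H/W and under 4 in all S-D rats, at 3.39, 3.31, 3.3 and 3.15 (at least 2.41-fold, means 5.27 and 3.29, adjusted p = 6.25e-04). Slc13a2, a carrier of citric acid cycle acids, sat at the limit of expression in H/W (3.71, 4.21, 4.19 and 4.1) and far under it in S-D (1.83, 1.84, 1.83 and 1.85). Its change was at least 1.04-fold (means 4.05 and 1.84, adjusted p = 6.58e-06). Pdia5, a protein disulfide isomerase, differed by 1.85 ± 0.31 (adjusted p = 0.00138), and here S-D rat 1, at 9.4, lay just under the lowest H/W rat, at 9.65, while the other S-D rats lay between 7.2 and 7.81. L3hypdh, a dehydratase of trans-3-hydroxy-proline, was 3.13-fold higher, and Swi5, a DNA repair factor, 3.09-fold (adjusted p = 9.62e-05 and 5.22e-05). The remaining members were Olr59, an olfactory receptor gene (4.12-fold, adjusted p = 0.00293, with 3 of 4 S-D rats under the limit), Bst2, an interferon-induced antiviral protein (3.24-fold, adjusted p = 0.00342), and Plaat3, a phospholipase and acyltransferase (3.07-fold, adjusted p = 0.00409). These 3 calls did not hold with some single rats left out. Olr59 was lost without H/W rat 1 or 4 or S-D rat 3 (adjusted p up to 0.0109), Bst2 without H/W rat 2 or 4 or S-D rat 1, 3 or 4 (up to 0.0119) and Plaat3 without H/W rat 2 or S-D rat 1, 3 or 4 (up to 0.0147).

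**Figure D2:**
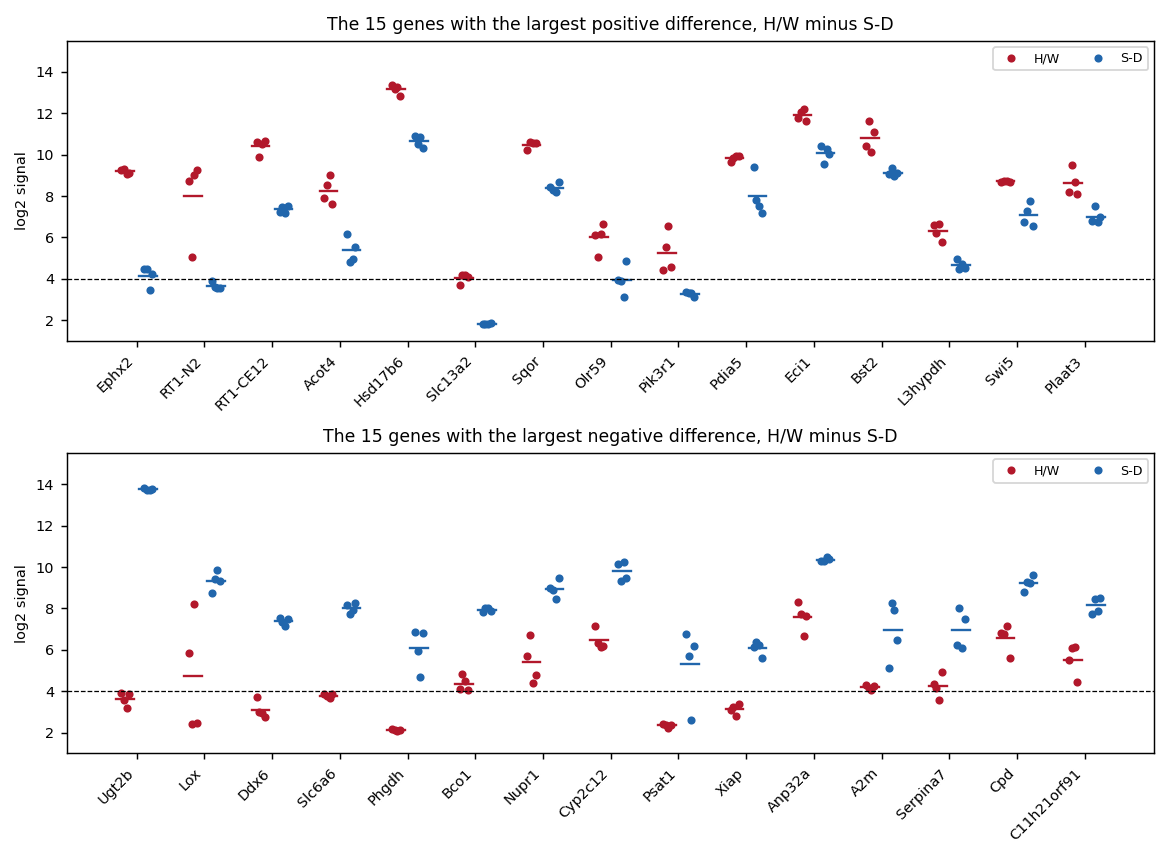
Log2 signal of each rat for the 15 genes with the largest positive difference (top) and the 15 with the largest negative difference (bottom) among those called, with H/W left and S-D right of each gene name, bars at the group means and the limit of expression dashed. The 2 groups do not overlap for any of the 30 genes, a condition of the choice that 20.4% of all 5371 expressed genes met, and single rats stand off for RT1-N2 (H/W rat 2), Pdia5 (S-D rat 1), Psat1 (S-D rat 3) and Lox (H/W rats 1 and 3).

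The largest fall in H/W was that of Ugt2b, a UDP-glucuronosyltransferase, an enzyme that joins glucuronic acid to steroids and drugs. It stood at 3.9, 3.57, 3.2 and 3.89 in H/W livers and at 13.83, 13.74, 13.72 and 13.75 in S-D livers. Every H/W rat was below the limit of expression and S-D rats were among the brightest signals of the array, a change of at least 868-fold (means 3.64 and 13.76, adjusted p = 9.15e-18). Its other ProbeSet gave 4.16, 4.69, 4.58 and 4.21 in H/W and 10.65, 10.45, 10.49 and 10.69 in S-D (71.6-fold lower, adjusted p = 3.45e-16). L-E averaged 3.66 on the brighter ProbeSet, at the level of H/W, whereas Line-A and Line-C averaged 13.52 and 13.55, at the level of S-D.

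Ugt2b was not alone in its stretch of chromosome 14. When the 5453 genes that could be placed and had an H/W or S-D mean of at least 4, a wider choice than a mean of 4 over the 8 rats, were put in RefSeq order, 355 of them were called, and the longest run of called genes without a gap was 6, made up of Sult1e1, Sult1b1, Ugt2b, Ugt2b15, Ugt2b35 and Ugt2b1. The run was noticed after the values were seen, and gene order is all that it rests on. Ugt2b35 stood at 13.15, 12.96, 13.1 and 13.24 in H/W and 13.91, 13.81, 13.61 and 13.7 in S-D (1.56-fold lower, adjusted p = 1.06e-05). Ugt2b15 stood at 12.25, 11.99, 11.83 and 12.15 in H/W and 13.03, 12.88, 12.64 and 12.76 in S-D (1.71-fold lower, adjusted p = 0.00193). Both kept their groups apart, at a change far smaller than that of Ugt2b. Ugt2b1 stood at 8.98, 8.96, 10.17 and 9.52 in H/W and 11.45, 11.21, 10.09 and 11.54 in S-D, where H/W rat 3 and S-D rat 3 overlapped (3.17-fold lower, adjusted p = 0.00381). Its call was lost without H/W rat 1 or 2 or S-D rat 1, 2 or 4 (adjusted p up to 0.0164). The 2 sulfotransferases at the end of the run moved in opposite directions. Sult1e1, the estrogen sulfotransferase, was higher by 0.58 ± 0.07 (adjusted p = 7.21e-05), and Sult1b1 was lower by 0.50 ± 0.10 (adjusted p = 0.00555), lost without H/W rat 2 or 4 or S-D rat 1, 2 or 4 (adjusted p up to 0.0199). Of 6 expressed UDP-glucuronosyltransferase genes 4 were lower and 0 higher (median -0.71), and the 4 were those of this run. These genes are close paralogs, and a ProbeSet may read more than 1 of them.

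The windows around the start sites of Ugt2b and its neighbour Ugt2b15 are shown because the genes are adjacent in the run and the sizes of their differences lie far apart. They come from RefSeq on build GRCr8 (strand +, chr14:20985199-20985498 and chr14:21122616-21122915), run from 250 bases before to 50 after the start, and have TATAA or its other strand TTATA in capitals.
Ugt2b: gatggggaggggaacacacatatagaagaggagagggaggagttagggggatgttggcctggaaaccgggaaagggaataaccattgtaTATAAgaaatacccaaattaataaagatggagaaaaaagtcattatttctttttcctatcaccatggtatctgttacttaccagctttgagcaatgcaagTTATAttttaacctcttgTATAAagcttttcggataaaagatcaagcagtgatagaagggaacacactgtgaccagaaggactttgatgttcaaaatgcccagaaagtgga
Ugt2b15: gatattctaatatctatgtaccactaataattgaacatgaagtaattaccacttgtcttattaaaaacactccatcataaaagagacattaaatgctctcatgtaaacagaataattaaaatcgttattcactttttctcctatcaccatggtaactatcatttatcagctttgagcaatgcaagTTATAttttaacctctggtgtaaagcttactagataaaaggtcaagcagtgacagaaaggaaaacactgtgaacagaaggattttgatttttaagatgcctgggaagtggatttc
The letters were found 3 times in the Ugt2b window, first bases at -161, -61 and -43 from the start, and once in that of Ugt2b15, at -65. Of 24206 windows of that length, 26.1% held TATAA on either strand. The AHR core GCGTG (other strand CACGC) was found 0 times in both windows and in 31.8% of all windows.

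**Figure D3:**
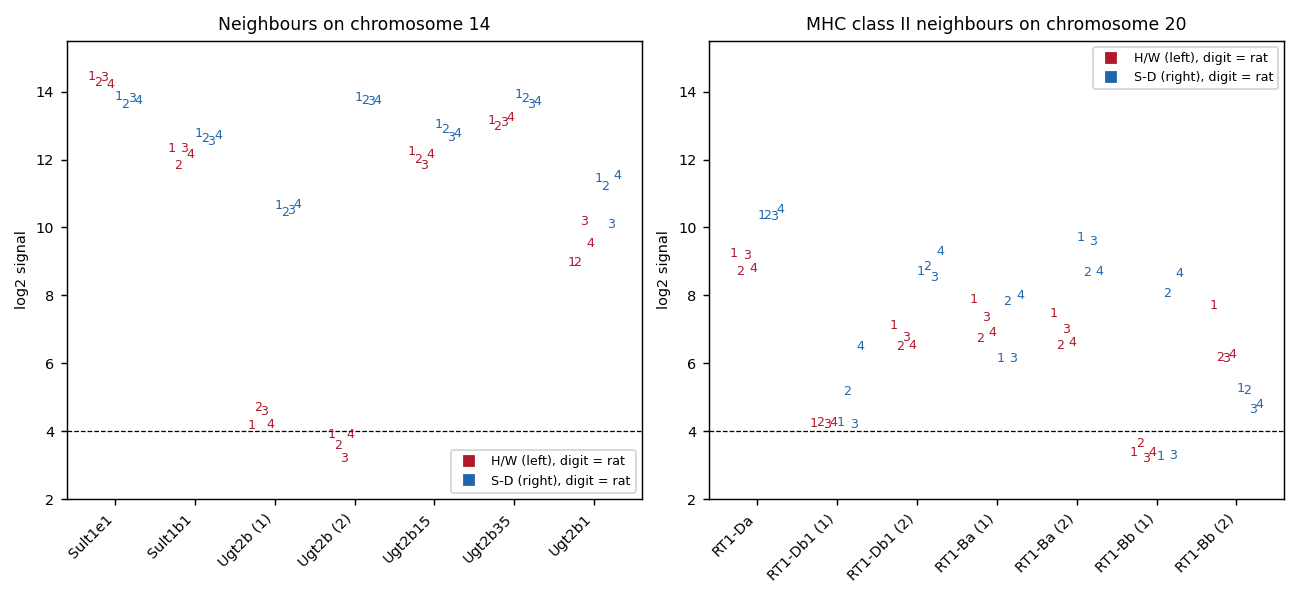
Log2 signal of each rat, drawn as the number of the rat, for every ProbeSet of the run of 6 called neighbours on chromosome 14 (left) and of the run of 4 MHC class II genes on chromosome 20 (right), with H/W left and S-D right of each name and the limit of expression dashed. Ugt2b is split between the strains on both of its ProbeSets, and S-D rats 2 and 4 part from S-D rats 1 and 3 on 4 of the 7 MHC class II ProbeSets.

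MHC class II, the molecules that show peptides to helper T cells, gave the other long run. RT1-Da, RT1-Db1, RT1-Ba and RT1-Bb, the chain genes of the rat class II region on chromosome 20, were called in a row, 3 lower and 1 higher in H/W. RT1-Da stood at 9.22, 8.69, 9.17 and 8.78 in H/W and 10.35, 10.36, 10.32 and 10.54 in S-D (2.69-fold lower, adjusted p = 7.23e-05). RT1-Db1 was 4.35-fold lower (adjusted p = 5.79e-07), at 7.11, 6.49, 6.76 and 6.53 in H/W and 8.7, 8.85, 8.54 and 9.29 in S-D. RT1-Ba was 4.81-fold lower (adjusted p = 6.09e-05), at 7.47, 6.51, 6.99 and 6.62 in H/W and 9.7, 8.68, 9.58 and 8.69 in S-D. The groups of these 3 did not overlap.

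The ProbeSets of 1 class II gene did not tell the same story. The second ProbeSet of RT1-Ba gave 7.87, 6.72, 7.34 and 6.92 in H/W and 6.15, 7.81, 6.15 and 8.01 in S-D, a difference of 0.18 ± 0.41 (adjusted p = 0.753). RT1-Bb was 3.01-fold higher on the brighter ProbeSet (7.69, 6.16, 6.15 and 6.27 in H/W, 5.27, 5.2, 4.65 and 4.78 in S-D, adjusted p = 0.00384). On the other it gave 3.37, 3.63, 3.2 and 3.38 in H/W and 3.24, 8.05, 3.29 and 8.63 in S-D. On that ProbeSet H/W and S-D rats 1 and 3 were under the limit of expression, and S-D rats 2 and 4 well above it (adjusted p = 0.129). S-D rats 2 and 4 were also the higher pair on the second RT1-Db1 ProbeSet (4.25, 5.17, 4.2 and 6.48 in S-D, 4.23, 4.26, 4.2 and 4.27 in H/W) and the lower pair on the called RT1-Ba ProbeSet. The outbred S-D rats thus fell into the same pairs on ProbeSets of 3 neighbouring genes. The call of RT1-Bb was lost without S-D rat 3 or 4 (adjusted p up to 0.0147). Of 8 expressed class II genes 5 were lower and 1 higher (median -1.02), and of 18 expressed class I and antigen processing genes 0 were lower and 2 higher, with a median of -0.1.

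The windows of RT1-Ba and RT1-Bb are shown because these neighbours were called in opposite directions. RT1-Ba lies on strand + (chr20:4576807-4577106) and RT1-Bb on strand - (chr20:4604069-4604368) of GRCr8, both from RefSeq, with CCAAT or its other strand ATTGG, the Y box letters of class II promoters, in capitals.
RT1-Ba: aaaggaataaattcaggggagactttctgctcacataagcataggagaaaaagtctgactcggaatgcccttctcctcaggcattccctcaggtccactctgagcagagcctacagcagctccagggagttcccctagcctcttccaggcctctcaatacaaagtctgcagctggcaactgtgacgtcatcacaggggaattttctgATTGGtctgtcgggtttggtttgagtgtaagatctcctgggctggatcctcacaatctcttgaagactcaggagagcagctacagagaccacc
RT1-Bb: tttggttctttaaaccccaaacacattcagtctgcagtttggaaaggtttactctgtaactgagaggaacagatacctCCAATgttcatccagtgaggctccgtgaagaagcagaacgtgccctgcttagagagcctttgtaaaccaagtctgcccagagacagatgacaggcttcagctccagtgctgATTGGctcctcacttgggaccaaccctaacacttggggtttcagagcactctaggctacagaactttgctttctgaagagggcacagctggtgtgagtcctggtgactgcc
RT1-Ba held the letters once, at -43, and RT1-Bb at -172 and -61. RT1-Da and RT1-Db1 held them too, at -49 and at -80 and -55. Of all windows 37.8% held CCAAT on either strand.

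Genes of serine synthesis and of the amino acid stress response were among the largest falls. Phgdh, the first enzyme of serine synthesis, stood at 2.17, 2.15, 2.07 and 2.15 in H/W and 6.85, 5.94, 4.71 and 6.81 in S-D, at least 4.22-fold lower (means 2.13 and 6.08, adjusted p = 4.73e-07). Psat1, the next enzyme of that pathway, stood at 2.42, 2.39, 2.24 and 2.38 in H/W and 6.78, 5.72, 2.63 and 6.21 in S-D (at least 2.52-fold lower, means 2.36 and 5.33, adjusted p = 0.00357). S-D rat 3 was the lowest S-D rat for both genes and was itself below the limit of expression for Psat1. The Psat1 call was lost without H/W rat 1 or S-D rat 1, 2 or 4 (adjusted p up to 0.0155). Nupr1, a stress-induced nuclear protein, stood at 5.72, 6.71, 4.41 and 4.77 in H/W and 8.99, 8.87, 8.45 and 9.49 in S-D (11.7-fold lower, adjusted p = 2.18e-05). In L-E, Line-A and Line-C, Phgdh averaged 2.1, 2.19 and 2.15 and Psat1 2.34, 2.66 and 2.38, so that S-D alone of the 5 groups had an expressed mean. Nupr1 differed from these genes, since L-E, Line-A and Line-C averaged 7.95, 8.39 and 7.64 and H/W was its low group. Of 14 expressed genes of the ATF4 response 2 were lower (Nupr1 and Phgdh) and 0 higher, with 3 lower at 5% FDR, 11 of 14 below 0 and a median of -0.18. Of 22 of serine, glycine and one-carbon metabolism 2 were lower (Phgdh and Agxt2) and 0 higher, with differences between -3.95 and 1.06 and a median of 0.03. Psat1 is left out of both counts because its mean over the 8 rats was under 4. Trib3, another ATF4 target, gave 5.98, 5.85, 5.6 and 5.88 in H/W and 6.02, 5.67, 5.59 and 5.9 in S-D (adjusted p = 0.889). Agxt2, a mitochondrial aminotransferase of glyoxylate, was 2.86-fold lower (adjusted p = 2.62e-04).

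Other large falls were of mixed function. Slc6a6, the taurine carrier, stood at 3.87, 3.77, 3.66 and 3.85 in H/W and 8.19, 7.72, 7.92 and 8.25 in S-D (at least 16.2-fold lower, means 3.79 and 8.02, adjusted p = 5.20e-05). On its second ProbeSet H/W rat 4 (7.75) lay near the S-D rats (8.51 to 9.03) and the other H/W rats between 4.42 and 5.5 (8.03-fold lower, adjusted p = 0.00299). Bco1, which cleaves beta-carotene to retinal, stood at 4.09, 4.84, 4.49 and 4.07 in H/W and 7.82, 8.03, 8.01 and 7.86 in S-D (11.8-fold lower, adjusted p = 2.39e-10), and L-E, Line-A and Line-C averaged 7.75, 7.33 and 7.24, so that H/W was the low group. Cyp2c12, the female-predominant steroid hydroxylase of rat liver, stood at 7.17, 6.32, 6.16 and 6.2 in H/W and 10.17, 9.32, 10.24 and 9.48 in S-D (10.1-fold lower, adjusted p = 0.00186, and 0.018 with scan day as a block). Anp32a, a nuclear phosphoprotein, was 6.78-fold lower, and Cpd, a carboxypeptidase of the secretory pathway, 6.23-fold (adjusted p = 1.45e-06 and 4.55e-04). C11h21orf91 was 6.15-fold lower (adjusted p = 5.86e-04). Xiap, an inhibitor of apoptosis, was under the limit in every H/W rat, at 3.12, 3.24, 2.79 and 3.41, and at 6.15, 6.39, 6.23 and 5.59 in S-D (at least 4.26-fold lower, means 3.14 and 6.09, adjusted p = 1.02e-04). Ddx6, an RNA helicase, disagreed between its ProbeSets: one gave 3.73, 3.0, 2.96 and 2.74 in H/W and 7.56, 7.34, 7.16 and 7.51 in S-D (at least 10.5-fold lower, means 3.11 and 7.39, adjusted p = 1.06e-05), and the other 8.76, 8.56, 9.16 and 8.37 in H/W and 8.72, 8.57, 8.6 and 8.89 in S-D (adjusted p = 0.935). Whether sequence differences between the strains under the probes have a part in such disagreements was not tested.

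The calls in the AHR axis were those of 2 genes of its target battery, and none fell in the complex. Tiparp is in both of these lists. Ahr was below the limit of expression in all rats on both of its ProbeSets (3.16, 3.12, 2.99 and 3.14 in H/W and 3.24, 3.06, 3.07 and 3.09 in S-D on the brighter, adjusted p = 0.807), as were Arnt and Arnt2, so no level could be compared for them. Of 3 expressed genes of the complex and its regulators 0 were called. Hsp90ab1, the chaperone that holds unliganded AHR, came nearest, at 13.12, 12.97, 13.11 and 12.71 in H/W and 12.52, 12.45, 12.62 and 12.41 in S-D (adjusted p = 0.0115), the co-chaperone Ptges3 differed by -0.10 ± 0.08 (adjusted p = 0.383), and Tiparp, an AHR-induced repressor of the receptor, by 0.02 ± 0.17 (adjusted p = 0.941).

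In the target battery 2 of 5 expressed genes were higher and 0 lower in H/W, beside 1.94% higher and 4.52% lower (6.46% in all) among the 5371 expressed genes. Cyp1a2, which oxidises caffeine and aromatic amines, stood at 14.15, 14.22, 14.64 and 14.27 in H/W and 13.61, 13.23, 13.65 and 13.47 in S-D (1.78-fold higher, adjusted p = 5.31e-05). Xdh, xanthine dehydrogenase, stood at 10.83, 10.53, 11.08 and 10.89 in H/W and 10.04, 9.98, 10.39 and 9.89 in S-D (1.69-fold higher, adjusted p = 0.00206). For both, L-E, Line-A and Line-C had averages near those of H/W, between 14.25 and 14.38 for Cyp1a2 and between 10.7 and 10.84 for Xdh, whichever Ahr allele they carried. Cyp1a1 stood at 1.69, 2.64, 7.63 and 2.98 in H/W and 2.72, 2.29, 2.4 and 2.84 in S-D, above the limit in H/W rat 3 and under it in the other 7 rats (adjusted p = 0.442). Aldh3a1, a dioxin-inducible aldehyde dehydrogenase, also reached the limit in that rat alone, at 4.06 against 3.15 to 3.21 in the other H/W rats and 3.02 to 3.1 in S-D (adjusted p = 0.19). Nqo1, a quinone reductase, varied within both groups, at 5.02, 6.71, 5.11 and 5.0 in H/W and 8.35, 5.05, 4.25 and 5.05 in S-D (adjusted p = 0.83). Cyp1b1 was below the limit in all 8 rats (3.35 to 3.57 in H/W and 3.19 to 3.31 in S-D), and Nfe2l2, which controls the antioxidant response, differed by -0.10 ± 0.18 (adjusted p = 0.7). The core GCGTG was found 0 times in the windows of Cyp1a2 and Xdh and 1 time each in those of Tiparp and Nqo1. These windows reach only 250 bases before the start, so a core further upstream would be missed. Within such windows the core was in 54.1% of 85 genes higher in H/W and 42.6% of 183 genes lower, beside 51.4% of 4331 expressed genes. Whether a core has a part in any difference was not tested.

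Other drug-metabolising enzymes moved in both directions. Of 44 expressed genes of phase I oxidation 3 were higher and 3 lower (median 0.15). Cyp3a9, a female-predominant member of the Cyp3a family, was 2.34-fold higher (10.39, 11.08, 10.31 and 10.47 in H/W, 9.27, 8.56, 9.9 and 9.61 in S-D, adjusted p = 0.00301, and 0.0111 without H/W rat 2). Of 24 glutathione transferases and sulfotransferases 3 were higher, Gstm4 by 2.38-fold and Gstt3 by 2.26-fold with Sult1e1, and 1 lower (median 0.12). Gstm4 lost its call without H/W rat 1 (adjusted p = 0.0103), and Gstt3 without H/W rat 4 or S-D rat 1 or 2 (up to 0.0118). Antioxidant genes leaned the other way, with 3 of 13 lower and 0 higher (median -0.19). Akr7a3, which detoxifies aflatoxin dialdehyde, stood at 9.13, 8.62, 9.43 and 8.98 in H/W and 11.25, 11.01, 10.62 and 10.87 in S-D (3.72-fold lower, adjusted p = 3.69e-04). Hmox1, heme oxygenase, was 2.56-fold lower (4.89, 5.49, 5.36 and 4.52 in H/W, 6.3, 6.37, 6.51 and 6.5 in S-D, adjusted p = 0.00313), a call lost without H/W rat 1 or 4 or S-D rat 3 or 4 (adjusted p up to 0.0122). Hmox1 is also a Kupffer cell marker.

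Lipid genes were mostly above S-D in H/W livers. In fatty acid oxidation and ketogenesis 5 of 40 expressed genes were higher and 1 lower, 34 of 40 differences were above 0 and the median was 0.27. Decr1, the mitochondrial reductase for unsaturated acyl chains, stood at 12.4, 12.68, 12.33 and 12.4 in H/W and 11.27, 10.68, 11.28 and 11.23 in S-D (2.53-fold higher, adjusted p = 0.00105), and with Eci1 and Decr2 (1.58-fold, adjusted p = 0.00427) it makes 3 auxiliary enzymes for unsaturated chains among the 5. The call of Decr2 was lost without H/W rat 1 or 4 or S-D rat 2 or 4 (adjusted p up to 0.0185). Cholesterol synthesis showed the most even lean, with 19 of 19 expressed genes above 0, between 0.17 and 1.78, and a median of 0.54, but 1 of 19 passed 1% FDR and 6 passed 5%. The 1 was Hsd17b7, which works in both sterol and estrogen synthesis, at 7.55, 8.24, 8.61 and 6.69 in H/W and 6.74, 5.54, 6.12 and 5.55 in S-D (3.45-fold higher, adjusted p = 0.00446). H/W rat 4 and S-D rat 1 overlapped, and the call was lost without H/W rat 2 or S-D rat 2, 3 or 4 (adjusted p up to 0.019). In fatty acid synthesis 3 of 22 were higher and 0 lower (median 0.3). Gpam, which starts triglyceride synthesis, stood at 8.36, 8.78, 6.66 and 7.35 in H/W and 6.3, 6.13, 6.54 and 6.31 in S-D (2.77-fold higher, adjusted p = 0.00918, lost without H/W rat 1 or 2 or any 1 S-D rat, up to 0.0357). Mlxipl, the carbohydrate-responsive transcription factor of liver, was 2.2-fold higher (adjusted p = 0.00441, lost without H/W rat 1 or 2 or S-D rat 1 or 4, up to 0.0184).

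In sterol and lipoprotein transport 3 of 19 expressed genes were higher and 1 lower (median 0.02). Apob, the structural protein of very low density lipoprotein, stood at 14.29, 14.2, 14.4 and 14.36 in H/W and 13.85, 13.94, 13.81 and 13.84 in S-D (1.37-fold higher, adjusted p = 1.81e-06). Its far dimmer second ProbeSet, with means of 5.86 in H/W and 6.04 in S-D, was not called (-0.18 ± 0.29, adjusted p = 0.656). Scarb1, the receptor for high density lipoprotein, was 1.61-fold higher (adjusted p = 1.48e-04). Abcg1, which exports cholesterol from cells, was under the limit in all H/W rats at 3.71, 3.59, 3.93 and 3.94, and at 4.99, 5.57, 5.43 and 4.95 in S-D (at least 2.35-fold lower, means 3.79 and 5.24, adjusted p = 2.33e-05). Among 19 bile acid genes 2 were higher and 2 lower (median -0.02), and the 4 were a ligase and carriers. Slc27a5, which activates bile acids, and the carrier Slco1a1 were 1.82- and 1.48-fold higher (adjusted p = 0.00143 and 0.00211). The uptake carriers Slco1b2 and Slc10a1 were 1.81- and 1.44-fold lower (adjusted p = 6.58e-06 and 0.00162). Cyp7a1, which sets the pace of bile acid formation, varied widely within the strains, at 10.33, 10.53, 10.44 and 9.47 in H/W and 10.49, 9.14, 10.04 and 9.74 in S-D (adjusted p = 0.738).

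Of 33 expressed protease inhibitors 10 were lower and 1 higher (median -0.14). A2m, the broad plasma inhibitor of the acute phase in rat, sat just above the limit in H/W, at 4.3, 4.18, 4.08 and 4.25, and varied in S-D, at 5.12, 8.27, 7.94 and 6.48 (6.73-fold lower, adjusted p = 0.0012). Serpina7, thyroxine-binding globulin, stood at 4.37, 4.14, 3.6 and 4.93 in H/W, with 1 of 4 under the limit, and 6.26, 8.0, 6.08 and 7.48 in S-D (6.49-fold lower, adjusted p = 0.00234, and 0.0102 without S-D rat 4). Cstb, an inhibitor of lysosomal cathepsins, was 2.4-fold lower (adjusted p = 3.69e-05). The 1 that was higher was Serpina6, corticosteroid-binding globulin, at 13.09, 13.25, 13.29 and 13.16 in H/W and 12.21, 12.51, 12.04 and 12.31 in S-D (1.91-fold, adjusted p = 1.25e-04). Thus the liver mRNA of a plasma carrier of thyroid hormone was lower and that of a glucocorticoid carrier higher in H/W. Plasma protein was not measured. Igfbp3, the main carrier of insulin-like growth factors, was 2.08-fold lower (adjusted p = 5.20e-05). Of 28 complement and coagulation genes 3 were lower, C1qa and C1qc of the first complement component and the protease C1r, and 1 was higher, Hrg (median -0.13).

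Of 11 expressed stellate cell and fibroblast markers 5 were lower and 0 higher (median -1.43, and 11 of 11 below 0). Col1a2 stood at 4.57, 4.54, 4.57 and 4.55 in H/W and 6.25, 6.96, 6.03 and 6.62 in S-D (3.75-fold lower, adjusted p = 1.12e-05). L-E, Line-A and Line-C averaged 4.37, 4.51 and 4.95 there, nearer to H/W. The second Col1a2 ProbeSet, with means of 3.29 in H/W and 4.79 in S-D, was not called (adjusted p = 0.0266). Col3a1 stood at 8.94, 8.7, 9.37 and 8.96 in H/W and 10.75, 11.14, 10.42 and 11.11 in S-D (3.63-fold lower, adjusted p = 3.44e-05). For both collagens S-D rats 2 and 4 were the highest. Vim, the intermediate filament of mesenchymal cells, was 2.69-fold lower (adjusted p = 1.25e-04). Lox, which cross-links collagen, stood at 5.86, 2.42, 8.23 and 2.45 in H/W and 8.77, 9.41, 9.86 and 9.31 in S-D, so that H/W rat 3 reached close to S-D and H/W rats 2 and 4 were below the limit (24.3-fold lower as measured and 14.1-fold with those 2 rats set to the limit, adjusted p = 0.00623). Its second ProbeSet had the same order of rats (4.9, 3.55, 6.43 and 3.71 in H/W, 7.54, 8.31, 8.66 and 8.17 in S-D, adjusted p = 4.13e-04). Col1a1 stood at 4.63, 4.62, 5.21 and 4.47 in H/W and 7.22, 7.96, 5.13 and 8.55 in S-D, where H/W rat 3 and S-D rat 3 overlapped (5.58-fold lower, adjusted p = 0.00466). The calls of Lox on the first ProbeSet and of Col1a1 did not hold without H/W rat 2 or 4 or S-D rat 1, 2 or 4, nor that of Lox without S-D rat 3 or of Col1a1 without H/W rat 1 (adjusted p up to 0.0209). On the second Col1a1 ProbeSet both group means were under the limit, at 3.45 in H/W and 3.9 in S-D, with no call (adjusted p = 0.096). For the 16 markers on the array the log2 of the summed signal was 9.98 to 10.75 in H/W and 11.66 to 12.15 in S-D. Of the 16, Des, Hgf, Lum, Rgs5 and Tagln were under 4 in both groups.

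Of 10 expressed Kupffer cell and macrophage markers 3 were lower at 1% FDR and 8 at 5%, and 0 were higher (median -0.66). C1qc stood at 8.55, 9.06, 8.88 and 8.64 in H/W and 9.66, 10.01, 9.66 and 9.79 in S-D (2-fold lower, adjusted p = 3.69e-04), and C1qa was 1.68-fold lower (adjusted p = 6.91e-04). The log2 of the summed signal of the 11 markers was 11.47 to 11.95 in H/W and 11.97 to 12.43 in S-D, and Itgam was under 4 in both groups. Of 6 expressed endothelial markers 3 were lower (log2 of the summed signal of the 8 on the array 11.13 to 11.37 in H/W and 11.64 to 11.9 in S-D). They were Kdr, a receptor for vascular growth factor (1.51-fold, adjusted p = 1.35e-04), and Lyve1 and Fcgr2b, whose calls were lost with some single rats left out (H/W rat 2 or S-D rat 1, 3 or 4 for both, H/W rat 4 for Lyve1, H/W rat 1 or S-D rat 2 for Fcgr2b, adjusted p up to 0.03). Epcam, 1 of 5 expressed bile duct markers, was 2.28-fold lower (4.94, 5.41, 5.32 and 5.37 in H/W, 6.12, 6.56, 6.36 and 6.74 in S-D, adjusted p = 8.13e-05). The log2 of the summed signal of the 9 bile duct markers was 11.25 to 11.62 in H/W and 11.77 to 12.12 in S-D. Under 4 in both groups were Pecam1 and Vwf of the endothelial markers and Cldn7, Krt7 and Spp1 of the bile duct markers. Markers of lymphocytes were nearly all under the limit, with 2 of 15 expressed, and of these Ptprc, the pan-leukocyte antigen, was 1.41-fold lower (adjusted p = 0.00182). Erythroid markers went the other way, with a log2 of the summed signal of 12.18 to 13.02 in H/W and 11.17 to 11.82 in S-D, and 0 of 2 expressed genes were called. Pericentral hepatocyte markers were also higher in sum (15.71 to 16.01 in H/W, 15.43 to 15.55 in S-D), with 1 of 8 expressed genes called higher and 1 lower. Periportal sums overlapped (17.31 to 17.45 in H/W, 17.35 to 17.44 in S-D), with 1 of 13 called lower and 0 higher. In whole liver, fewer cells of a type and less RNA per cell cannot be told apart. The macrophage, endothelial and fibroblast markers had only lower calls. More calls were lower than higher among the class II (5 of 8 lower), complement (3 of 28) and lysosomal genes (3 of 33). Over all 5371 expressed genes 4.52% were lower and 1.94% higher, so such a lean is not particular to these lists. C1qa and C1qc are in both the complement and the macrophage list. Whether these markers vary with those genes from rat to rat, and what part they have in those results, was not tested. Cd63, a tetraspanin of late endosomes and the largest of 3 lower genes among 33 of the lysosome list, stood at 7.06, 7.69, 8.28 and 7.62 in H/W and 9.6, 9.31, 9.72 and 9.75 in S-D (3.83-fold lower, adjusted p = 7.56e-06), but L-E, Line-A and Line-C averaged 10.12, 9.92 and 10.03, at or above S-D.

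**Figure D4:**
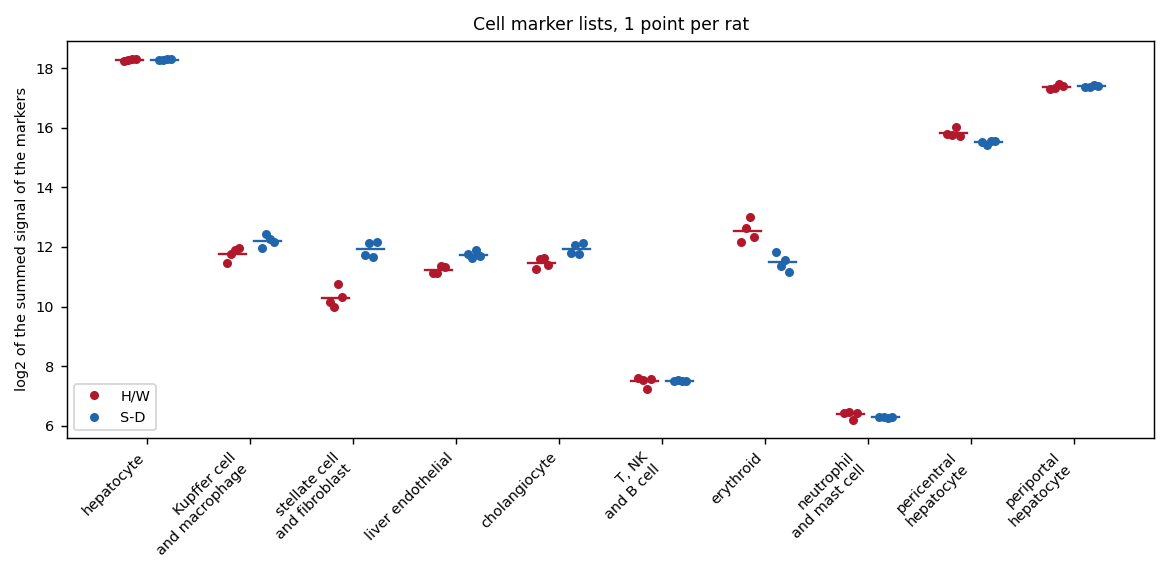
Log2 of the summed signal of the markers on the array for 10 lists of cell markers, 1 point per rat, with H/W left and S-D right of each name and bars at the group means. The hepatocyte sums coincide (18.23 to 18.3 in H/W, 18.27 to 18.31 in S-D), and the stellate cell sums are the furthest apart (9.98 to 10.75 in H/W, 11.66 to 12.15 in S-D). The erythroid sums and the pericentral hepatocyte sums (15.71 to 16.01 in H/W, 15.43 to 15.55 in S-D) are higher in H/W.

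Several gene groups of basic liver function had no call at 1% FDR. Of 49 expressed genes of the respiratory chain 0 were called, and all differences lay between -0.36 and 0.36 (median 0.0), with 4 higher and 2 lower at 5% FDR. Of 17 nuclear receptors 0 were called (1 lower at 5%), of 9 clock genes 0 and of 5 renin-angiotensin genes 0 (0 at 5% for both). Over all 5371 expressed genes 6.46% were called at 1% FDR, so 0 calls in lists this short say little about their genes. Of 29 ribosomal protein genes 1, Rpl13a, was lower (1.39-fold, adjusted p = 0.00365, and up to 0.0146 without H/W rat 2 or S-D rat 2 or 4). Of 13 expressed male-biased genes 2 were higher and 0 lower, with 8 above 0 and a median of 0.11. Of 10 female-biased genes 1 was higher and 2, among them Cyp2c12, were lower, with 8 above 0 and a median of 0.28.

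**Figure D5:**
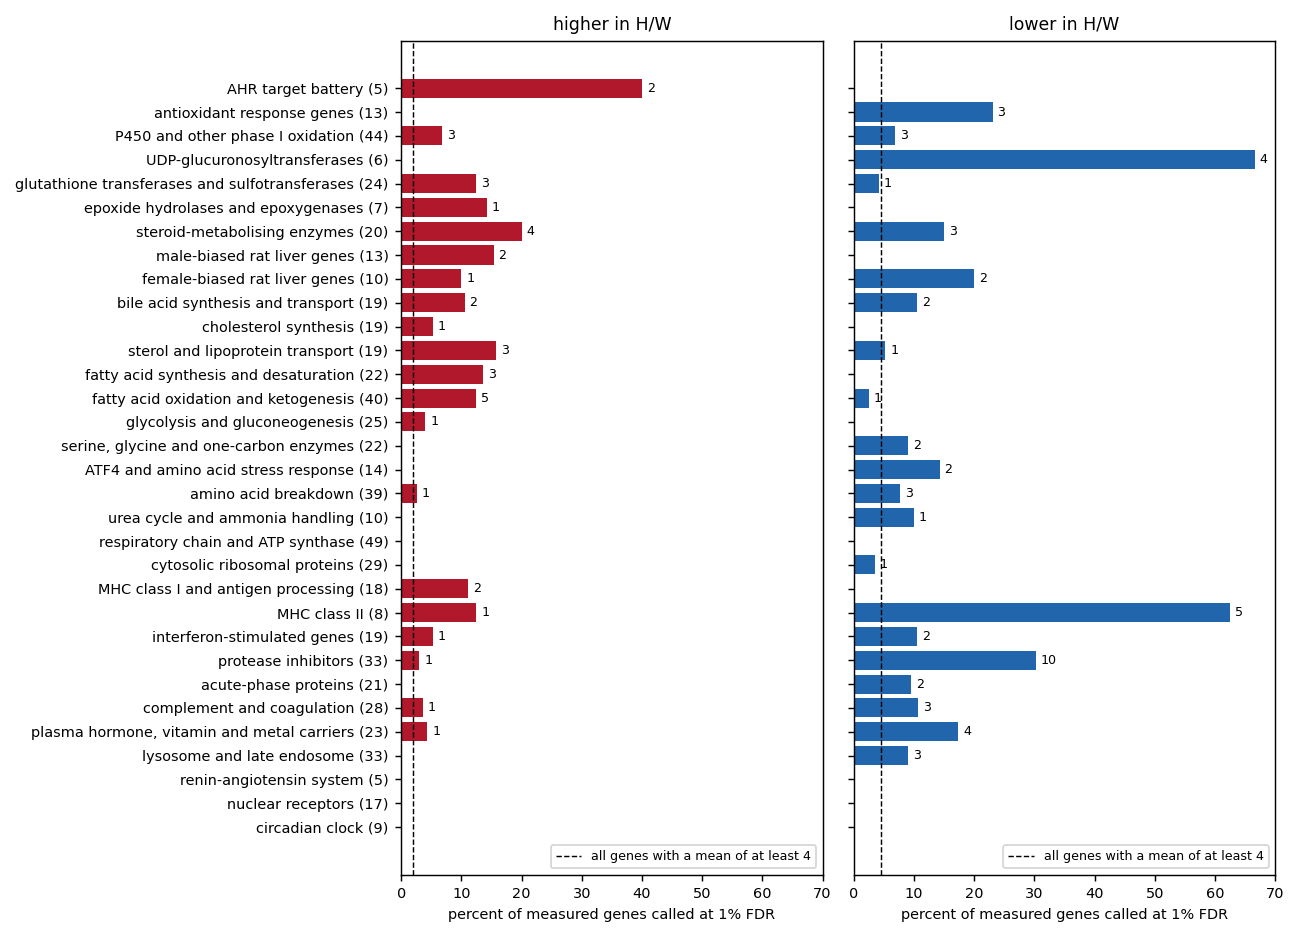
Percent of the expressed genes of each list that were called higher (left) or lower (right) in H/W at 1% FDR, with the number of expressed genes in parentheses after the name, the number called at each bar, and the share over all 5371 expressed genes dashed (1.94% higher, 4.52% lower). MHC class II (5 of 8) and UDP-glucuronosyltransferases (4 of 6) have the longest bars among the lower calls.

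Line-A and Line-C also differ in their Ahr allele, on a shared mixed background, and none of their rats is in the H/W or S-D group. Between Line-A and Line-C 85 ProbeSets (0.534%) were called at 1% FDR. The difference between H/W and S-D departed from the difference between Line-A and Line-C in 250 ProbeSets (1.57%) by limma at 1% FDR. Across 7141 expressed ProbeSets, which are not independent replicates, the 2 differences had a Pearson r of -0.04. Of the 521 called ProbeSets 22 (4.22%) were also called between the lines, which is 25.9% of the 85, and of these 11 had the same direction and 11 the opposite one.

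Agtr1a, the main angiotensin II receptor of liver and the gene with the widest split between the lines, was expressed in both strains. On its brighter ProbeSet it stood at 11.27, 11.14, 10.87 and 11.22 in H/W and 10.73, 10.76, 10.59 and 10.71 in S-D, a difference of 0.43 ± 0.16 (adjusted p = 0.129). Line-A averaged 10.79 and Line-C 3.91, and L-E 3.54. On its other ProbeSet it stood at 9.37, 9.62, 9.44 and 9.14 in H/W and 8.99, 8.8, 8.84 and 8.78 in S-D (0.54 ± 0.11, adjusted p = 0.00491), and here Line-C averaged 2.72, under the limit. With Line-C set to the limit, Line-A was higher than Line-C by at least 4.51, which exceeded the difference between the strains by at least 3.97, and the differences as measured were called unequal (adjusted p = 3.44e-13). S-D thus had a high Agtr1a signal with a wild-type Ahr, where Line-C and L-E, which also carry the wild-type allele, were near or below the limit.

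Of the named genes called in both pairs, those whose differences were not called unequal were RT1-N2 (Line-A 8.09, Line-C 3.58), Sqor (10.03 and 7.34), Olr59 (8.44 and 4.84), Cyp2c12 (7.93 and 11.79), Hrg (14.65 and 14.13) and Igfbp3 (8.18 and 9.0). For these the variant-Ahr group lay on the same side in both pairs, with differences between the pairs of -0.15 ± 0.86, -0.60 ± 0.17, -1.55 ± 0.54, 0.52 ± 0.83, 0.02 ± 0.10 and -0.24 ± 0.18 (adjusted p of 0.926, 0.0746, 0.158, 0.737, 0.923 and 0.612). A p above the threshold does not show that the differences are equal. L-E, with the wild-type allele, lay nearer to the variant groups for RT1-N2 (9.22), Olr59 (7.6), Hrg (14.58) and Igfbp3 (8.19). It lay nearer to the wild-type groups for Sqor (7.01) and Cyp2c12 (11.13). Opposite in the pairs were Lox (Line-A 9.28, Line-C 2.61) and Sult1e1 (13.36 and 13.79). Slc13a2 was under 4 on average in both lines, so no direction is given for it there. The largest positive differences of the whole array belonged to 2 ProbeSets without a gene symbol (means of 11.27 in H/W and 4.65 in S-D, and of 11.14 in H/W and 4.8 in S-D), which were singled out after their values were seen, and between the lines they ran the other way, with Line-A at 4.83 against Line-C at 11.06 for one and Line-A at 4.15 against Line-C at 10.19 for the other.

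The groups outside the pair mostly lay nearer to H/W. Of the 494 called ProbeSets with an expressed group, the L-E mean was nearer to H/W than to S-D in 357, that of Line-A in 348 and that of Line-C in 337. All 3 were nearer to H/W in 250 (50.6%) and all 3 nearer to S-D in 58 (11.7%), beside 26.1% and 16.2% of the 6788 ProbeSets that were not called. Line-A and Line-C have H/W ancestors, whereas L-E is their other parental strain. All 12 arrays of these groups were scanned by the operator of the H/W arrays, so descent and operator cannot be told apart for the lines. L-E and H/W arrays also shared scan days and chip lots. What part operator, scan day or lot has in the result for L-E was not tested.

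Of the genes for which the study designed primers, and which were set down whatever their values, Prkaa2, the catalytic alpha 2 subunit of the energy sensor AMP kinase, was lower in H/W. It stood at 7.7, 7.67, 7.55 and 7.13 in H/W and 9.57, 9.5, 9.44 and 9.49 in S-D (3.97-fold, adjusted p = 1.65e-04). Cyp2c12 and Pik3r1 are given above. For some others the groups did not overlap but the call was not made at 1% FDR. Thrsp, a lipogenic protein, stood at 13.03, 12.19, 12.58 and 11.93 in H/W and 10.83, 11.62, 11.42 and 10.75 in S-D (1.28 ± 0.40, adjusted p = 0.0673), and Tsc22d1, a transcription regulator, at 11.19, 10.93, 11.28 and 11.09 in H/W and 11.72, 12.71, 12.57 and 12.14 in S-D (-1.16 ± 0.32, adjusted p = 0.0404). Mt1, metallothionein, stood at 5.68, 6.89, 5.14 and 6.47 in H/W and 7.87, 7.37, 6.87 and 8.33 in S-D, with an overlap of 1 rat (adjusted p = 0.0754). Per2, a clock gene, reached 8.25 in H/W rat 3 and lay between 3.75 and 5.25 in the other H/W rats and between 3.51 and 5.24 in S-D (adjusted p = 0.42), and Elovl6, a fatty acid elongase, reached 6.35 in H/W rat 1 and lay between 2.46 and 3.02 in the other 7 rats (adjusted p = 0.296). Aldh3a2, Chka, Crip2, Cyp17a1, Klf10, Nrep and Gapdh had adjusted p-values between 0.0653 and 0.456.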

How the data were processed

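Total RNA from 8 livers (4 H/W, 4 S-D) was hybridised to RAE230A arrays, 1 per rat. The authors normalized all 20 arrays together by GC-RMA, and per the labels used R 2.6.1, affy 1.12.0 and GCRMA 2.10.0. The deposited values are log2 signals per ProbeSet with no missing value, and their scale keeps no count of molecules, so the 4 arrays per group limit the precision. The background model and the joint quantile step draw arrays together and compress low signals.

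ProbeSets were named from the platform annotation: 12789 of 15923 had 1 gene symbol, 312 several and 2822 none. The linear model (limma 3.58.1 in R 4.3.3) held a mean for each of 5 groups over 20 arrays, so that all share 1 spread. Contrasts were H/W minus S-D, and that minus Line-A minus Line-C, with Benjamini-Hochberg adjustment over 15923 ProbeSets and calls at 1% FDR, with 5%, the threshold of the methods, beside it. Genes were counted once, by the ProbeSet of highest mean. A list is described by its counts and its median, with no test. Where all 4 rats of a group were under 4, the fold is a lower bound against 4.

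Named genes were the 15 highest and 15 lowest called with no overlap, up to 4 called per pathway list, every called cell marker, and, whatever their values, Agtr1a, the AHR lists and the primer genes. Genes of the neighbouring runs were named after their values were seen. The samples, lists and tests were chosen with earlier results of these data known. On simulated data, the fit called 80 of 100 ProbeSets changed by 1 on the log2 scale and 28 of 100 changed by 0.5, with 0 false calls. The simulated noise was independent between arrays, had the same SD in every group and held no effect of scan day, lot or operator. Its count of false calls therefore does not bear on batches that coincide with strain. Alternatives covered moderation, scaling, filters, the arrays used, batch blocks and each rat left out.

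No sequence of the array's probes was used here.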

Additional observations from a re-analysis of the deposited data

Results flagged for a closer look

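In groups of 4 rats, a single rat stood apart when its gap to the nearest other rat, divided by the range of the group, was above the 95% critical value of Dixon. Chance marks about 1 in 20 groups, and 12 of 218 were marked here. In H/W these were rat 2 for RT1-N2 (5.08, low) and Nqo1 (6.71, high), rat 1 for Cyp2c12 (7.17), RT1-Bb (7.69) and Elovl6 (6.35), all high, rat 3 for Plin2 (11.75) and Aldh3a1 (4.06), both high, and rat 4 for Ptges3 (11.16, low). In S-D these were rat 3 for Hao2 (12.57) and Fcgr2b (10.29), both high, rat 2 for Decr1 (10.68, low) and rat 4 for Per2 (3.51, low).

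The difference between H/W and S-D was unequal to that between Line-A and Line-C in 250 ProbeSets by limma at 1% FDR. Among named genes called in both pairs, the measured difference between the pairs was 1.01 for Sult1e1 (adjusted p = 1.57e-05). It was -11.27 for Lox (adjusted p = 1.00e-04), where Line-C and H/W rats 2 and 4 were under 4, and -9.1 with every rat under 4 set to 4. It was 4.0 for Slc13a2 as measured, and 0.24 with every rat under 4 set to 4, since most of its signals lay under the limit, so its measured value carries no size. Setting signals under 4 to 4 was chosen after seeing the data.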

How the results depend on the processing

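None of the 94 named genes called reversed its direction under any of 22 alternatives it could be fitted in. These genes were chosen by their calls on the same arrays, so a reversal was unlikely from the start. Alternatives of moderation and of the filter leave the difference itself unchanged. The absence of reversals is therefore no measure of robustness. The direction of the named genes not called was not compared. Of the 94, 34 kept their call under all alternatives and 62 kept it with each rat left out in turn. With rats left out in turn 32 lost it at least once, and 45 lost it with scan day as a block, 47 with chip lot and 53 on the 8 arrays alone. Array weights gave 6103 calls, of which 1319 had a group at or above 4 (521 higher and 798 lower in H/W), and 5146 departures from Line-A minus Line-C. A fit on the 8 H/W and S-D arrays alone gave 170 and 165 (45 higher, 120 lower). Scan day as a random block (correlation 0.176) gave 213 and 203 (50 higher, 153 lower) and 158 departures, and chip lot (0.2124) gave 170 and 160 (42 higher, 118 lower) and 122 departures. Equal array medians gave 86 higher. With 1 rat left out, calls ran between 365 and 999 (999 without H/W rat 3), those with a group at or above 4 between 346 and 594, higher ones between 95 and 166, lower ones between 251 and 434, and departures between 200 and 256. Chosen after seeing the data, limma-trend without H/W rat 3 gave 4075 calls and 883 with a group at or above 4 (264 higher, 619 lower), and keeping only 2 H/W arrays of 1 scan day gave 218 lower. The causes were not tested, except that fewer arrays leave fewer degrees of freedom in the fit on 8 arrays.

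Same-numbered H/W and S-D rats did not deviate together (correlations of 0.0, -0.01, 0.07 and -0.07), so the numbers do not pair them. With the replicate number as a block 456 ProbeSets were called, 435 of them with a group at or above 4 (124 higher, 311 lower), and 209 departed. Signals under 4 carry no order, and 4 rats per group in batches that coincide with strain limit every call.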
